A study of Homo sapiens with 4 samples.

Results

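The loci described here are the rows of the deposited expression table that carry a running number in place of a gene name, with identifiers that begin with NewGene. They were chosen by that identifier alone and number 912 of the 3200 rows, and the other 2288 rows have an Ensembl gene identifier. In all 912 the symbol column repeats the identifier. The position, length and sequence of these loci were not analysed here, so no gene name, coding status or function is given to any of them.

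K562, an established human cell line from a chronic myeloid leukaemia, has erythroid features and carries the BCR-ABL fusion kinase. It was measured by RNA-seq of poly-A RNA in 4 libraries, 1 per group. The resistant library came from K562/IMR cells, labelled as resistant to imatinib, the inhibitor of BCR-ABL, with no vesicles. The R-Exo library came from K562 cells given R-Exo for 48 h, and the S-Exo library from K562 cells given S-Exo for 48 h as the control that the series description names. Going by that description, R-Exo and S-Exo are taken to be exosomes (small vesicles shed by cells) from resistant and sensitive cells. The parental library came from untreated K562 cells with the genotype label WT. All 4 share the K562 background, and the labels do not say whether the resistant line is 1 clone.

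Sequencing reads that map outside the genes of an annotation can be assembled into transcript models and numbered as new loci. Such loci can be long non-coding RNAs, unannotated ends or exons of known genes, transcribed repeats or expressed pseudogenes. Long non-coding RNAs are in general less abundant than messenger RNAs and more restricted to particular cell types. The sources used here do not give how the authors assembled and numbered the loci in this table. The authors' protocol names no strand-marking step, so a locus and an antisense partner cannot be told apart.

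The table's name states that its rows were selected as differentially expressed, and the sources used here do not give the selection rule. Of the unnamed loci, 880 (96.5%) had a 2-fold or larger ratio between some pair of libraries after 0.01 was added to both values, and of the Ensembl genes 2189 (95.7%) did. All counts and correlations below therefore describe rows that had already been picked for differing. With 1 library per group there was no replicate spread to judge a difference by, and no p-value was computed. In bulk RNA, fewer cells that express a locus and less RNA per cell cannot be told apart.

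Across the 912 loci the libraries fell into the same pairs as across the Ensembl genes, and the R-Exo library stood with the resistant one. On the log2 (FPKM + 1) scale, resistant and R-Exo had a Pearson's r of 0.93, and S-Exo and parental one of 0.94. For the other 4 pairs it lay between 0.43 and 0.46. The same values over the 2288 Ensembl genes were 0.98, 0.98 and 0.76 to 0.77, so the distance between the pairs was wider for the unnamed loci, which also span a narrower range of levels. By rank the contrast was larger still: Spearman's rho for the loci was 0.87 and 0.89 within the pairs and 0.18 to 0.22 between them, against 0.95, 0.95 and 0.63 to 0.64 for Ensembl genes. Each of these correlations describes 4 single libraries across rows that share those libraries and had been picked for differing. The part of that selection in the low values between the pairs was not tested. An effect of the vesicles and RNA of resistant-line cells in the R-Exo library cannot be told apart with these values.

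Of the K562 markers listed for this work, 6 of 16 were in the table, all above 0 in every library. HBZ, the embryonic zeta-globin gene, had 1101 FPKM in resistant, 1253 in R-Exo, 533 in S-Exo and 480 in parental. TFRC, the transferrin receptor gene, ran the other way, with 114 FPKM in resistant, 98.6 in R-Exo, 214 in S-Exo and 224 in parental. The marker lists of other blood cells had 1 member each in the table, out of 5 for T cells, 4 for B cells and 6 for monocytes and granulocytes. CD3D had 8.85 FPKM in resistant, 7.27 in R-Exo, 0.677 in S-Exo and 0.410 in parental. CD22 (4.22, 4.56, 0.626 and 0.563 FPKM) and CD33 (4.71, 5.08, 0.693 and 0.543 FPKM), given in the same order of libraries, had the same pattern. Their part in the results for the unnamed loci was not tested.

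Most unnamed loci were weakly expressed in every library. The median was 1.11 FPKM in resistant, 1.04 in R-Exo, 0.871 in S-Exo and 0.778 in parental, where FPKM is a fragment count divided by gene model length and by library depth. The medians of the Ensembl genes were 1.29, 1.14, 1.14 and 1.07 FPKM in the same order. The 2 kinds of row differed more at the upper end. Only 42 loci (4.61%) reached 10 FPKM in resistant, 39 in R-Exo, 25 in S-Exo and 24 (2.63%) in parental, while 313 to 334 of the Ensembl genes (13.7% to 14.6%) did so in each library.

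The unnamed loci as a group carried more signal in the resistant and R-Exo libraries. Their FPKM summed to 2876 in resistant and 2674 in R-Exo, against 1837 in S-Exo and 1812 in parental. The resistant sum was 1.59 times the parental one and the R-Exo sum 1.46 times the S-Exo one. For Ensembl genes the same ratios were 1.06 and 1.08. The loci took 12.1% of the table's summed FPKM in resistant, 11.2% in R-Exo, 8.58% in S-Exo and 8.46% in parental. These sums lean on a few loci: without the 2 with the highest mean over the 4 libraries, the ratios were 1.41 and 1.29.

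**Figure D1:**
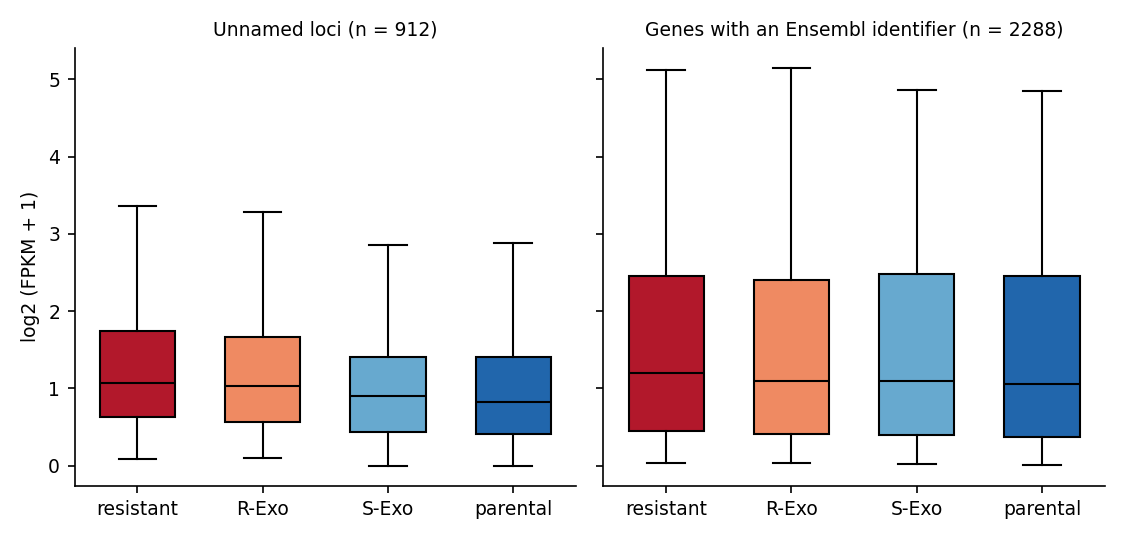
Expression of the 912 unnamed loci and of the 2288 Ensembl genes in each of the 4 libraries, as log2 (FPKM + 1). Boxes span the quartiles with the median as a line, and whiskers run from the 5th to the 95th percentile of rows. The loci had medians of 1.11 and 1.04 FPKM in resistant and R-Exo against 0.871 and 0.778 in S-Exo and parental, and their upper whiskers end lower than those of the Ensembl genes in all 4 libraries.

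The most abundant locus by mean over the 4 libraries was NewGene_698. It had 447 FPKM in resistant, 419 in R-Exo, 199 in S-Exo and 214 in parental. It was thus 2.09-fold higher in resistant than in parental and 2.11-fold higher in R-Exo than in S-Exo. The locus listed under the preceding running number had the opposite pattern, with 5.89 FPKM in resistant and 5.83 in R-Exo against 37.7 in S-Exo and 38.2 in parental. The second most abundant locus had 197 FPKM in resistant, 166 in R-Exo, 13.5 in S-Exo and 9.78 in parental. The resistant and R-Exo values of all 3 loci lay on 1 side of both the S-Exo and the parental value.

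Resistant against parental describes the imatinib-resistant line beside the cells it is set against. The difference was log2 of (FPKM + 1) in resistant minus the same in parental, a scale that understates the difference of rows with low values. A locus was compared where either library reached 1 FPKM, and counted where the absolute difference was at least 1. Of the 912 loci 642 were compared, 182 (28.3%) were higher and 79 (12.3%) lower in resistant. Over all 2151 rows compared the shares were 28% higher and 18.1% lower. Ensembl genes had 420 of 1509 higher (27.8%) and 311 lower (20.6%), so the share that was higher was close in the 2 kinds of row and the share that was lower was smaller among the loci. The median difference was 0.58 for the loci and 0.15 for the Ensembl genes. Differences past 2 were found in 39 loci on the higher side (6.07%) and 16 on the lower (2.49%), beside 5.95% and 3.30% of all rows compared. Differences past 3 were found in 9 and 2 loci, beside 32 and 15 rows.

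The excess of higher loci depended on where 0 was set. The gap between the medians of loci and Ensembl genes kept its sign after quantile normalization. The median over all compared rows was 0.42, and with that median set to 0 (re-scaled) 93 loci were higher and 166 lower. Among the loci counted, the share on the higher side was 69.7% as deposited, 35.9% re-scaled and 58.2% after quantile normalization. Re-scaled Ensembl genes were higher in 12.1% and lower in 39.0%, against 14.5% and 25.9% of the loci. The median of the loci exceeded that of the Ensembl genes by 0.43 as deposited and by 0.63 after quantile normalization. Re-scaling takes the same value from every row, so it cannot change this gap.

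The largest differences on the higher side, by log2 of (FPKM + 1) among loci that reached 5 FPKM in resistant or parental, were those of NewGene_5703 and NewGene_5698. NewGene_5703 had 22.2 FPKM in resistant and 21.5 in R-Exo, and was listed at 0 in both S-Exo and parental. NewGene_5698 had 62.5 FPKM in resistant and 67.4 in R-Exo, against 2.05 in S-Exo and 2.44 in parental. It was 25.6-fold higher in resistant than in parental and 33.0-fold higher in R-Exo than in S-Exo. The next 8 loci in this order had 12.0 to 197 FPKM in resistant and 0.0927 to 9.78 FPKM in parental. In all 10 the resistant and the R-Exo value lay above both others.

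The largest differences on the lower side were those of NewGene_6101 and NewGene_5763. NewGene_6101 had 0.542 FPKM in resistant and 0.352 in R-Exo, against 15.0 in S-Exo and 13.3 in parental. It was 24.6-fold lower in resistant than in parental. NewGene_5763 had 0.127 FPKM in resistant and 0.296 in R-Exo, against 9.27 in S-Exo and 8.95 in parental. The next 8 loci had 0.101 to 5.89 FPKM in resistant and 5.95 to 38.2 FPKM in parental. In 9 of the 10 lowest loci the resistant and R-Exo values lay below both others. The exception was the tenth, with 1.13 FPKM in resistant, 0.658 in R-Exo, 0.412 in S-Exo and 9.55 in parental, so that the parental library alone was high.

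**Figure D2:**
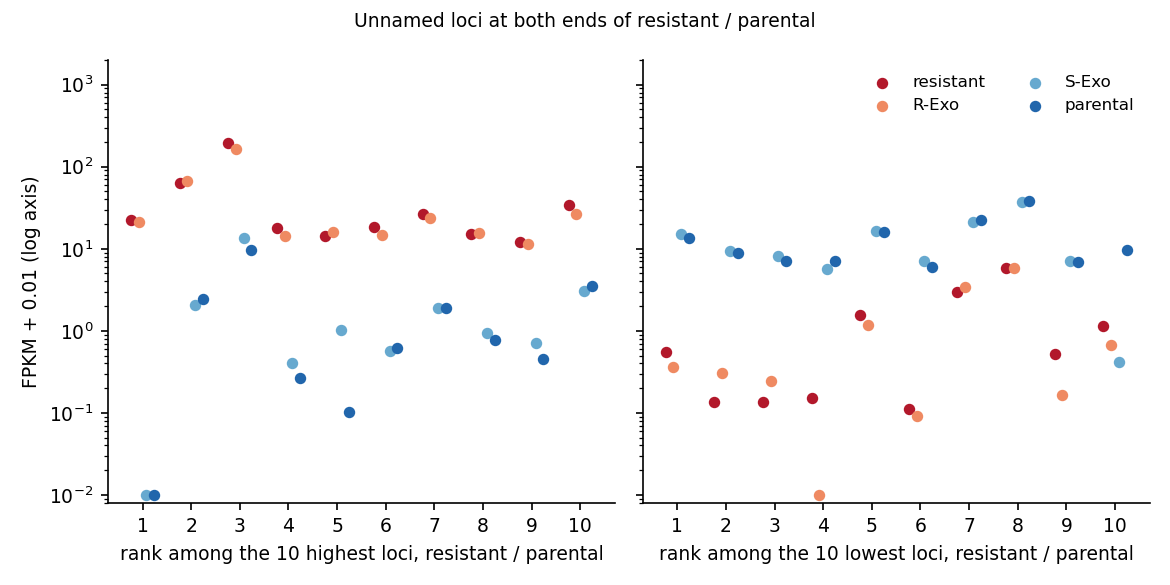
FPKM plus 0.01, on a log axis, in the 4 libraries for the 10 unnamed loci with the highest and the 10 with the lowest resistant/parental difference, among loci that reached 5 FPKM in either of those libraries. Each point is 1 library, and points at the bottom are values listed at 0. Resistant and R-Exo points lie above the others in all 10 highest loci and below them in 9 of the 10 lowest.

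R-Exo against S-Exo sets cells given the vesicles of resistant cells beside cells given those of sensitive cells. Of 637 loci compared, 168 (26.4%) were higher and 104 (16.3%) lower in R-Exo, where the shares over all 2154 rows compared were 23.2% higher and 21.2% lower. Ensembl genes had 331 of 1517 higher (21.8%) and 352 lower (23.2%). The median difference was 0.44 for the loci and -0.09 for the Ensembl genes. Re-scaled by the median over all compared rows of 0.21, 118 loci were higher and 148 lower (44.4% of those counted on the higher side, 61.8% as deposited). Re-scaled in this way, 18.5% of the loci compared were higher and 23.2% lower, against 14.0% and 34.9% of the Ensembl genes. The median of the loci lay above that of the Ensembl genes by 0.53 as deposited, a gap that re-scaling cannot change. After quantile normalization it lay above by 0.60.

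The 2 comparisons share no library, and the loci counted in one were mostly counted in the other on the same side. Of the 182 loci higher in resistant, 128 (70.3%) were also higher in R-Exo than in S-Exo, which is 76.2% of the 168 counted there. Over all rows the same shares were 66.9% and 80.8%. Of the 79 lower in resistant, 60 (75.9%) were also lower in R-Exo than in S-Exo, or 57.7% of 104. Over all rows these shares were 70.8% and 60.5%, so both overlaps of the loci were near those of the whole table. One locus was counted on opposite sides. Across all 912 loci Pearson's r between the 2 differences was 0.88 and Spearman's rho 0.84, against 0.92 and 0.89 across the Ensembl genes. Of the 10 highest and the 10 lowest loci of each comparison, 8 and 9 were the same. That overlap was not counted for the Ensembl genes, so it is not a trait shown for the loci alone.

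**Figure D3:**
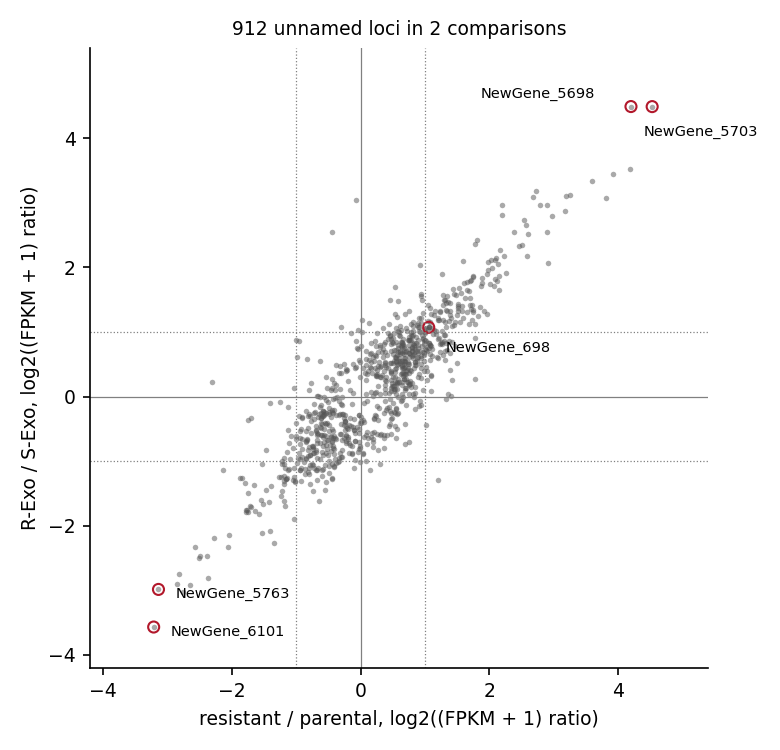
Difference between resistant and parental (x axis) and between R-Exo and S-Exo (y axis), each as log2 of the ratio of FPKM + 1, for the 912 unnamed loci. Each point is 1 locus, dotted lines mark the limits of -1 and 1, and circles mark the 5 loci named in the text. Points follow the diagonal, with 128 loci past the limit on the higher side in both and 60 past it on the lower side in both.

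Rows were sorted into 5 classes by their mean FPKM over the 4 libraries, to set the unnamed loci beside Ensembl genes of the same level. The share that was higher lay above that of the Ensembl genes in every class in R-Exo against S-Exo, and in every class but the lowest in resistant against parental. The share that was lower lay below that of the Ensembl genes in every class, except for that of 10 FPKM or more in R-Exo against S-Exo. With classes set by the highest FPKM in place of the mean, the lowest class of R-Exo against S-Exo, at 1 to 2 FPKM, had 12.3% of loci higher and 9.92% lower, against 12.8% and 9.79% of Ensembl genes. Among compared rows at 5 to 10 FPKM, 25 of 51 loci (49.0%) were higher in resistant and 5 (9.80%) lower, against 71 (33.3%) and 39 (18.3%) of 213 Ensembl genes. In R-Exo against S-Exo the same class had 27 of 51 loci higher (52.9%) and 8 lower, against 50 (23.5%) and 48 of 213 Ensembl genes. At 2 to 5 FPKM, 37.3% of 153 loci and 27.7% of 393 Ensembl genes were higher in resistant. Below 1 FPKM the order was the other way round, with 20.4% of 186 loci and 25.7% of 226 Ensembl genes higher in resistant. At 10 FPKM or more there were only 26 loci, of which 12 were higher and 6 lower in resistant, and 12 were higher and 12 lower in R-Exo against S-Exo. These are counts in selected rows, and the part of the selection rule in the difference between loci and genes was not tested.

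With the Ensembl genes weighted to the levels of the loci, their share higher in resistant was 25.3% and lower 17.8%, beside 28.3% and 12.3% of the loci. In R-Exo against S-Exo the weighted shares were 18.4% higher and 19.8% lower, beside 26.4% and 16.3% of the loci. On the higher side the loci thus exceeded genes of like level by 3.06 percentage points in resistant against parental and by 7.93 in R-Exo against S-Exo. Whether these 2 distances differ was not tested.

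**Figure D4:**
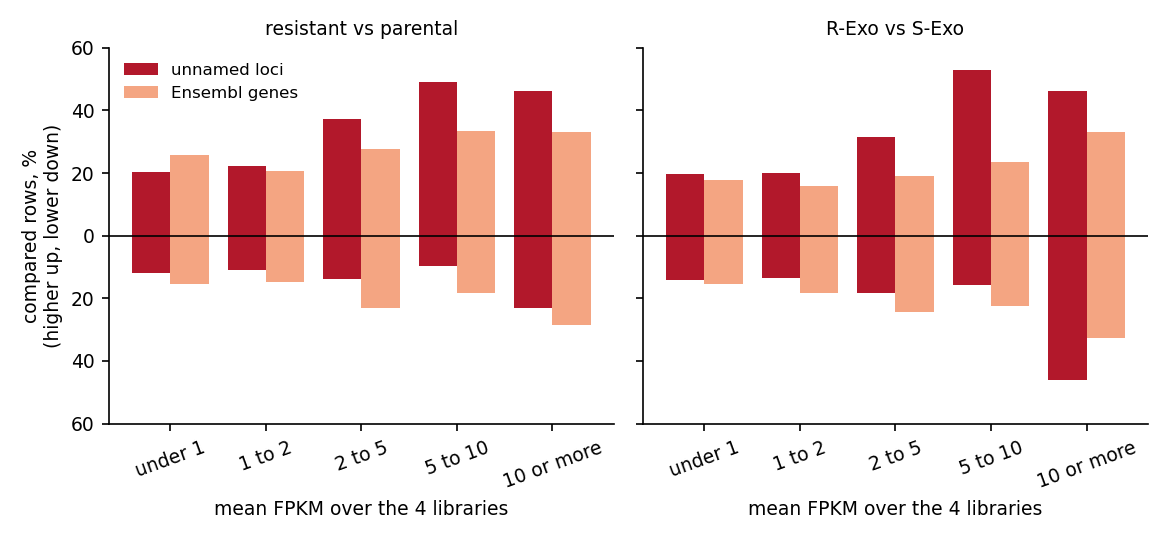
Share of compared rows counted as higher (bars up) or lower (bars down) in resistant against parental and in R-Exo against S-Exo, by class of mean FPKM over the 4 libraries, for unnamed loci and Ensembl genes. At 5 to 10 FPKM 49.0% and 52.9% of the loci were higher in the 2 comparisons, against 33.3% and 23.5% of Ensembl genes. The last class holds 26 loci.

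Loci that were on in one library and off in the other were counted as on-off patterns. A locus was called on at 1 FPKM or more and off at 0.1 FPKM or less. On in resistant and off in parental were 59 loci (6.47%), where the share over all 3200 rows was 4.12% and that of Ensembl genes 3.19%. Of these 59, 39 were listed at 0 in parental, and their median in resistant was 1.85 FPKM with 7 at 5 FPKM or more. The reverse pattern, on in parental and off in resistant, was found in 25 loci (2.74%), beside 2.88% of all rows and 2.93% of Ensembl genes. None of these 25 reached 5 FPKM in parental. The on-off shares were not matched for level. A mean of 1 to 2 FPKM was found in 25.1% of loci and 15.3% of Ensembl genes. A mean of 10 FPKM or more was found in 2.85% and 14.7%. The part of level in the on-off shares was not tested.

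The vesicle libraries gave similar counts. On in R-Exo and off in S-Exo were 55 loci (6.03%), beside 3.91% of all rows and 3.06% of Ensembl genes. The reverse was found in 27 loci (2.96%), beside 2.91% of all rows. In 40 loci (4.39%) both resistant and R-Exo were on while both S-Exo and parental were off, beside 2.75% of all rows. In 12 loci (1.32%) the pattern was the opposite, beside 1.78% of all rows.

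Read by order alone, both resistant and R-Exo lay above both S-Exo and parental in 467 loci (51.2%), beside 47.3% of all rows, and below both in 295 loci (32.3%), beside 39.2% of all rows. The remaining 150 loci (16.4%) had another order. Zeros followed the same pairs in only some of the loci that had any. Of the 912 loci 800 were above 0 in all 4 libraries, 35 only in resistant and R-Exo and 12 only in S-Exo and parental (87.7%, 3.84% and 1.32%). Of the Ensembl genes 89.6%, 2.49% and 2.27% had these patterns. Other loci were at 0 only in S-Exo (26), only in parental (14), only in resistant (11) or only in R-Exo (11). These were 2.85%, 1.54%, 1.21% and 1.21% of the loci, beside 1.27%, 1.40%, 1.14% and 0.918% of Ensembl genes. The loci listed at 0 numbered 24 in resistant (2.63%), 25 in R-Exo (2.74%), 63 in S-Exo (6.91%) and 50 in parental (5.48%). Of all rows 3.53%, 3.47%, 5.03% and 4.81% were listed at 0 in the same order.

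R-Exo set against untreated parental cells gave counts close to those against S-Exo. Of 620 loci compared, 163 (26.3%) were higher and 96 (15.5%) lower, beside 23.5% and 21.5% of all rows compared. Re-scaled by the median over all compared rows of 0.34, 98 were higher and 160 lower, and the higher side held 38.0% of those counted (62.9% as deposited). The 98 and 160 were 15.8% and 25.8% of the loci compared, against 12.1% and 40.1% of the Ensembl genes. On in R-Exo and off in parental were 56 loci (6.14%), beside 3.91% of all rows, and the reverse was found in 23 loci (2.52%), beside 2.59% of all rows. This comparison uses the same parental library as that of resistant with parental.

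The 2 closest pairs of libraries differed at few loci. Between S-Exo and parental, 3 of 454 compared loci were higher and 6 lower (0.661% and 1.32%), beside 1.63% and 1.22% of all rows. The median absolute difference of the loci was 0.21, and 95% of them lay within 0.71. Between R-Exo and resistant, 8 of 559 compared loci were higher and 5 lower (1.43% and 0.894%), beside 1.6% and 1.22% of all rows, with a median absolute difference of 0.27 and 95% within 0.82. The median absolute difference was 0.88 in resistant against parental. On in S-Exo and off in parental were 2 loci, beside 0.375% of all rows, and the reverse was found in 1 locus, beside 0.156%. On in R-Exo and off in resistant were 3 loci, beside 0.281% of all rows, and the reverse was found in 0 loci, beside 0.188%.

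Loci with close running numbers tended to differ in the same direction. The numbers ran from 13 to 10086, so the listed loci were a part of a longer numbered set. The sources used here do not say what the order of the numbers stands for. In resistant against parental, 52 of the 61 pairs of compared loci whose numbers differ by exactly 1 (85.2%) had differences of the same sign, where 53.2% of all pairs did. The share was 80.7% of 57 pairs at a distance of 2, 63.4% at 3 to 5 and 61.3% at 6 to 10, and lay between 50.9% and 56.1% at every larger distance. In R-Exo against S-Exo it was 76.7% of 60 pairs at a distance of 1 and 51.4% of all pairs. Pairs that share a locus share its values and are not independent observations.

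**Figure D5:**
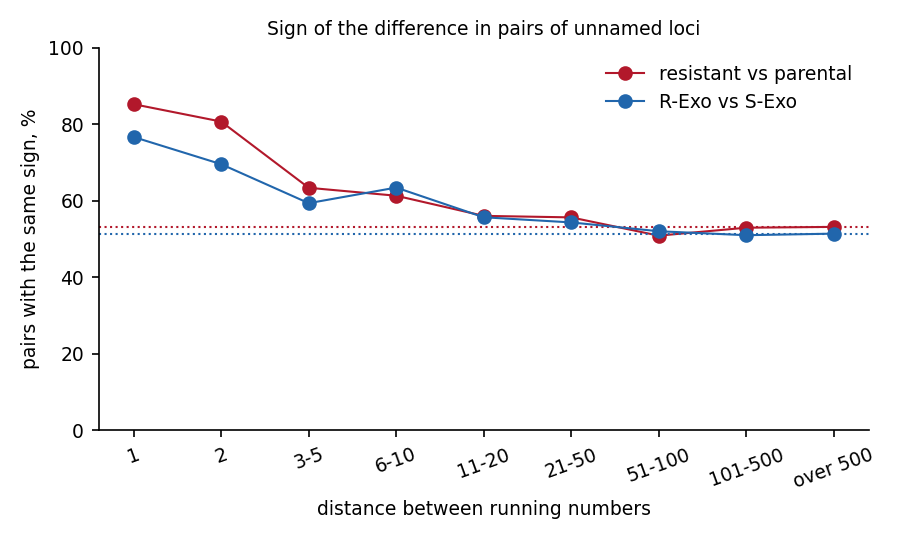
Share of pairs of compared unnamed loci whose differences have the same sign, by the distance between their running numbers, for resistant against parental and R-Exo against S-Exo. Dotted lines give the share over all pairs (53.2% and 51.4%). The share is 85.2% and 76.7% at a distance of 1, 61.3% and 63.5% at 6 to 10, and 56.1% or less beyond that.

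NewGene_5703 and NewGene_5698, the loci with the largest higher differences, lay in 1 such stretch. Within 20 numbers of NewGene_5703 the table held 10 loci, numbered 5690 to 5723, a window chosen after the values had been seen. All 10 were higher in resistant than in parental and in R-Exo than in S-Exo, 7 of them past the limit in each comparison. Over all rows compared, 28% and 23.2% were higher past the limit in the 2 comparisons, and 54.8% and 52.4% had a difference above 0. These shares leave out rows below 1 FPKM in both libraries of a comparison, and the window held some such loci. The FPKM of the 10 loci summed to 118 in resistant and 124 in R-Exo, against 2.89 in S-Exo and 3.28 in parental. Of the 118 FPKM, 62.5 were those of NewGene_5698 and 22.2 those of NewGene_5703. Of the 10, 5 were listed at 0 in both S-Exo and parental. Another member of the stretch was the one with the fourth largest difference on the higher side, with 18.1 FPKM in resistant, 14.2 in R-Exo, 0.392 in S-Exo and 0.259 in parental. Because the window was set around the largest differences, these sums and counts in part restate them.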

How the data were processed

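The authors deposited 1 table of FPKM values with a column for each of the 4 libraries. The unit is the one that the table is named for. Libraries were made from 1 µg of RNA with poly-T selection and a NEBNext Ultra kit, per the labels' protocols. The submitters' processing notes name, without a role, SAMtools 0.1.18, GATK, Picard and TopHat2. The sources used here give no build, annotation, quantifier or assembly method for the new loci. Columns were matched to samples by the library names in the labels.

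The depth is unknown: among 79 unnamed loci between 0 and 0.3 FPKM in both parental and S-Exo, all 79 log2 ratios were distinct at 3 decimals, and whole reads could not be recovered.

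Differences were log2 ratios with a pseudocount of 1, for rows that reached 1 FPKM in either library, and counts were taken at 1 or more. Named loci were the 2 highest and 2 lowest in resistant against parental with at least 5 FPKM in either, and the most abundant one. The counting was tested on simulated data. The loci and rules were chosen with earlier results of these data known. Python 3.11.15, pandas 2.3.3 and NumPy 2.4.6 were used.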

Additional observations from a re-analysis of the deposited data

How the results depend on the processing

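Each group had 1 library, so no replicate could be left out. No paired analysis was possible because each group has 1 library. A pseudocount of 0.1 raised the counts of higher and lower loci to 316 and 156 in resistant against parental, 270 and 193 in R-Exo against S-Exo, 272 and 175 in R-Exo against parental, 27 and 15 in S-Exo against parental and 33 and 42 in R-Exo against resistant. A minimum of 5 FPKM gave 71 and 22, 64 and 36, 56 and 31, 1 and 2, and 4 and 2 in the same order, with fewer loci compared. At that minimum 53.4% of 133 loci were higher in resistant than in parental and 16.5% lower, against 34.3% and 26.4% of Ensembl genes. In R-Exo against S-Exo 51.6% and 29.0% of 124 loci were, against 27.6% and 30.5%. With the pseudocount of 0.1 the shares were 49.2% and 24.3%, against 39.2% and 30.0%, in resistant against parental. In R-Exo against S-Exo they were 42.4% and 30.3%, against 33.4% and 37.2%. In R-Exo against parental they were 43.9% and 28.2%, against 33.2% and 37.7%. S-Exo against parental had 5.95% and 3.30% of loci, against 4.26% and 2.36%. R-Exo against resistant had 5.90% and 7.51%, against 2.73% and 3.71%. In both closest pairs the loci thus passed the limit more often than Ensembl genes at this pseudocount, unlike at 1. Re-scaling to a median of 0 gave 93 and 166 in resistant against parental and 98 and 160 in R-Exo against parental, and moved the other 6 counts by less than 1.5 times. No minimum and quantile normalization moved none of the 10 counts by more than that.

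With off set at exactly 0, 39 loci were on in resistant and off in parental, and 16 the reverse. At that setting 42 were on in R-Exo and off in S-Exo, and 15 the reverse. With on at 0.5 FPKM, 85 loci were on in resistant and off in parental and 40 the reverse. At that setting 87 were on in R-Exo and off in S-Exo, and 44 the reverse. With on at 5 FPKM the counts were 7 on in resistant and off in parental and 0 the reverse, and 5 on in R-Exo and off in S-Exo and 2 the reverse. The shares of other rows at these settings are not given here. On the log2 (FPKM + 0.1) scale Pearson's r was 0.89 between resistant and R-Exo, 0.91 between S-Exo and parental, 0.28 between resistant and S-Exo, 0.27 between resistant and parental, 0.26 between R-Exo and S-Exo and 0.26 between R-Exo and parental. Consecutive listed loci had the same sign in 63.8% of pairs in resistant against parental and 61.6% in R-Exo against S-Exo, beside 85.2% and 76.7% for numbers that differ by exactly 1. Without the loci numbered 5690 to 5723, an alternative chosen after seeing the data, the last 2 shares were 85.0% and 76.3%. Classes set by the highest in place of the mean FPKM kept the sign of all 10 weighted distances between loci and Ensembl genes. The depth is unknown, so what it limits at low FPKM could not be stated.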

Other observations

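A few unnamed loci differed past the size limit within the pair of resistant with R-Exo or of S-Exo with parental. In all, 19 loci passed the size limit in R-Exo against resistant or in S-Exo against parental, and 3 passed it in both. Of the loci compared 2.33% passed it in R-Exo against resistant and 1.98% in S-Exo against parental. Over all rows compared these shares were 2.82% and 2.84%. The 19 loci were chosen here for these differences and are given by value only. Some of them kept the order of the pairs. An example had 16.7 FPKM in resistant and 7.44 in R-Exo, both below 18.1 in S-Exo and 23.8 in parental.

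The locus with the largest difference between R-Exo and resistant had 7.28 FPKM in R-Exo and 0.0642 in resistant, was listed at 0 in S-Exo and had 0.114 FPKM in parental, so only the R-Exo library was above 1 FPKM. Between S-Exo and parental the lowest locus had 0.412 FPKM in S-Exo and 9.55 in parental, with 1.13 in resistant and 0.658 in R-Exo, so only the parental library was above 2 FPKM. The highest had 4.85 FPKM in S-Exo against 0 listed in parental, with 1.57 in resistant and 5.02 in R-Exo. Both vesicle libraries were thus above both libraries without vesicles at that locus.

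The locus counted as higher in resistant than in parental and lower in R-Exo than in S-Exo had 5.66 FPKM in resistant and 1.90 in parental, and 1.88 in R-Exo and 6.09 in S-Exo. Another locus had 9.97 FPKM in R-Exo and 2.93 in resistant, and 0.876 in S-Exo and 4.32 in parental.

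In bands of 1000 running numbers, the share of compared loci higher in resistant than in parental ran from 22.7% (10 of 44, numbers 1000 to 1999) to 37.9% (22 of 58, numbers 9000 to 9999), leaving out the 2 loci past 9999. The share that was lower ran from 3.28% (2 of 61, numbers 2000 to 2999) to 26.2% (17 of 65, numbers 6000 to 6999). The band from 6000 to 6999 was picked for this value. In it 17 of 65 loci (26.2%) were also higher in resistant, with a median difference of -0.14. Over all rows compared 28% were higher and 18.1% lower in resistant. In R-Exo against S-Exo 12 of 62 loci of the band were higher and 19 lower (19.4% and 30.6%), with a median difference of -0.73. Over all rows compared these shares were 23.2% and 21.2%.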
